A study of Arabidopsis thaliana with 2 samples.

Results

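The pericentromere of chromosome 5 of Arabidopsis (Arabidopsis thaliana) was taken as the stretch from 9 Mb to 16 Mb, and its members were all bins of the deposited bisulfite-sequencing table that start there, 5481 of the 56731 bins listed for the whole genome. The libraries were made from 12-d-old seedlings, wild-type Col-0 and miP1a-OX, a transgenic line that carries 35S::FLAG-miP1a and so expresses the FLAG-tagged microProtein miP1a from a constitutive viral promoter in every tissue. Both were grown in long days without treatment, and the sample records name soil whereas the methods name MS plates. There was 1 library per genotype, so every test below compares 2 libraries and not the genotypes, and no value has a replicate check. A bin covers 99 bases and follows the previous bin at a spacing of 100 bases. Its methylation level is the percentage of methylated calls among all cytosine calls of both strands, whatever the sequence context. The table lists only bins whose two-sided Fisher's exact p is at most 0.01, which is 4.74% of all bins of the genome, so a listed bin had to differ between the libraries and unlisted bins are not described. Intervals are 95% Clopper-Pearson intervals of the calls and cover counting error only, since calls from 1 read are not independent.

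Pericentromeres flank the centromere and are packed as heterochromatin, in which transposable elements and their decayed remains far outnumber active genes. In plants, cytosines are methylated in CG, CHG and CHH contexts (H is A, C or T). CG methylation is copied at each replication by MET1 with the help of VIM proteins, CHG methylation is kept by CMT3, and CHH methylation is laid down by CMT2 and by small RNA-directed DRM2. Bodies of moderately expressed genes can also carry methylation, almost wholly in CG, whereas pericentromeric repeats carry it in every context. The centromeric core is built from a short satellite in tandem, and reads from such repeats cannot always be placed. The reference annotation calls most transposon remains pseudogenes. It has 779 pseudogenes in these 7 Mb, of 951 on the chromosome, and no other stretch of 7 successive 1-Mb steps of chromosome 5 has more.

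The sequences of the bins on which the results turn are printed first, because their composition varies from CG-rich to CG-free. All are from the plus strand of the TAIR10.1 reference, 5′ to 3′, with CG dinucleotides in capitals. Among bins that differed by at least 40 points, with 10 or more calls and 5 or more measured sites in each library, the first 3 had the largest increases in miP1a-OX and the next 2 the largest decreases. The last 2 were the deepest bins of 2 different tandem repeats.
chr5:11940601-11940699, intergenic: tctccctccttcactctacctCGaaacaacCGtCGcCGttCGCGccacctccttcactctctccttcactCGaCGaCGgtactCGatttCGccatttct
chr5:14338801-14338899, intergenic: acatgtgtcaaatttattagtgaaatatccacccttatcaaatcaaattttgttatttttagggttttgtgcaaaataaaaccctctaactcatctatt
chr5:11326101-11326199, pseudogene AT5G29975: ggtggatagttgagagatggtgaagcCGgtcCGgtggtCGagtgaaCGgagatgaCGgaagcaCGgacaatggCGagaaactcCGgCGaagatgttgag
chr5:13621701-13621799, intergenic: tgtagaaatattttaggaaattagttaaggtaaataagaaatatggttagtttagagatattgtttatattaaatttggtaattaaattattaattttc
chr5:15377601-15377699, coding exon of RBCS3B: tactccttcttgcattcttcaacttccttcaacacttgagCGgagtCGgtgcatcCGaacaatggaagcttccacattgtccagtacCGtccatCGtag
chr5:11185401-11185499, tandem repeat with a 502-base spacing: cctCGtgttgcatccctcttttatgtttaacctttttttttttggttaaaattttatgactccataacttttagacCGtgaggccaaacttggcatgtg
chr5:11730401-11730499, tandem repeat with a 178-base spacing: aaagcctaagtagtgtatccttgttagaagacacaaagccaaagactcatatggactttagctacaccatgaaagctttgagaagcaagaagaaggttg
The printed stretch of the first bin holds 11 CG dinucleotides and that of the pseudogene bin 9, whereas the bin from 14338801, the AT-rich bin from 13621701 and the bin of the 178-base repeat hold 0.

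Methylation in the pericentromere was higher in the miP1a-OX library in most listed bins. The calls of all 5481 bins gave a pooled level of 17.4% in Col-0 (95% interval 17.36 to 17.46, 2013866 calls) against 20.9% in miP1a-OX (20.86 to 20.98, 1944322 calls), a difference of 3.51 percentage points. The level was higher in miP1a-OX in 3760 bins (68.6%) and lower in 1721, against 63.6% higher among all listed bins of the genome. Over all listed nuclear bins the pooled difference was 2.15 points and the median difference of single bins 5.26 points. Once the difference of each bin is taken relative to that median, 61.0% of the 5481 bins are higher. The pooled difference of 3.51 points less the same median is -1.75 points. A median over bins and a pooled difference are unlike measures, so no direction is read from this value. Because the bins were listed for differing, these shares describe the listed bins and carry no test.

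The size of the difference was moderate in most bins. The median difference was 7.45 points, the median increase 9.51 points and the median decrease -9.36 points. An absolute difference under 10 points was found in 3032 bins (55.3%), and 235 bins differed by at least 20 points, of which 155 were higher in miP1a-OX and 80 lower. Bins higher in miP1a-OX started from a median level of 13.1% in Col-0 and reached 23.8%, whereas bins lower in miP1a-OX went from 24.1% to 13.0%. Sorting bins by the sign of their difference sets this contrast in Col-0 levels in advance, so nothing is read from it. A level of 0% was found in Col-0 in 160 bins and in miP1a-OX in 241 bins. After Benjamini-Hochberg adjustment over all bins of the genome, 26.2% of the bins passed 0.01, against 32.4% of all listed bins.

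The same measures in the rest of chromosome 5 and in the other pericentromeres are set beside these as a description, without a test. The arms of chromosome 5 had 6651 listed bins, 3.33% of their bins, against 7.83% in the pericentromere. Pooled levels in the arms were 10.5% in Col-0 against 11.9% in miP1a-OX, the median difference was 3.14 points, and 57.3% of the bins were higher in miP1a-OX. The 7-Mb stretches with the most pseudogenes on chromosomes 1 to 4 had median differences from 7.53 to 7.74 points, and between 69.8% and 71.4% of their bins were higher. Chromosome 5 was the lowest of these 5 stretches in both measures, at 7.45 points and 68.6%. It was not the lowest in the pooled difference, 3.51 points, against 4.24, 2.85, 1.89 and 3.65 points in the stretches of chromosomes 1, 2, 3 and 4. Neighbouring bins moved together in the pericentromere as in the arms: of 1017 pairs of listed bins side by side, 943 (92.7%) had the same direction, and 1125 of 1213 (92.7%) in the arms.

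Along the pericentromere, the level was highest in the middle and lower towards both arms, and both libraries followed this course. In Col-0 the pooled level was 14.3% from 9 to 10 Mb, 21.7% from 12 to 13 Mb and 13.1% from 15 to 16 Mb. In miP1a-OX the same steps gave 18.5%, 24.9% and 16.2%. The steps in the middle are also those with the most pseudogenes, 203 from 12 to 13 Mb against 41 in the first step and 33 in the last, and with the fewest protein-coding genes, 16 from 11 to 12 Mb against 238 in the last step. Each of the 7 steps of 1 Mb was higher in miP1a-OX, by 2.42 points from 11 to 12 Mb at the least and by 4.24 points from 9 to 10 Mb at the most. The step from 11 to 12 Mb also had the lowest share of higher bins, 63.9%, against 72.3% from 10 to 11 Mb.

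At a finer scale, 69 of 70 steps of 100 kb had at least 20 listed bins, and the pooled level was higher in miP1a-OX in 67 of these. The remaining steps were neighbours. From 11.7 to 11.8 Mb the pooled level was 16.6% in Col-0 against 15.8% in miP1a-OX over 86 bins, and from 11.8 to 11.9 Mb it was 29.8% and 28.1% over 76 bins. The second of these had the highest Col-0 level and the lowest median depth of the 69 steps, 10.9-fold in Col-0 against 10.1-fold in miP1a-OX. Depth counts both strands, so that 1 call at each cytosine with a call gives 2-fold. The largest pooled difference, 7.38 points, lay from 14.3 to 14.4 Mb (51 bins), where 86.3% of the bins were higher in miP1a-OX. The next step, from 14.4 to 14.5 Mb, held 1 listed bin of 1000. The median depth over all bins was 22.1-fold in Col-0 against 21.3-fold in miP1a-OX, and in Col-0 it was lowest from 11 to 12 Mb (17.9-fold) and highest from 15 to 16 Mb (25.2-fold). The depth was thus lowest where the level was high, and its part in the course of the level was not tested.

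**Figure D1:**
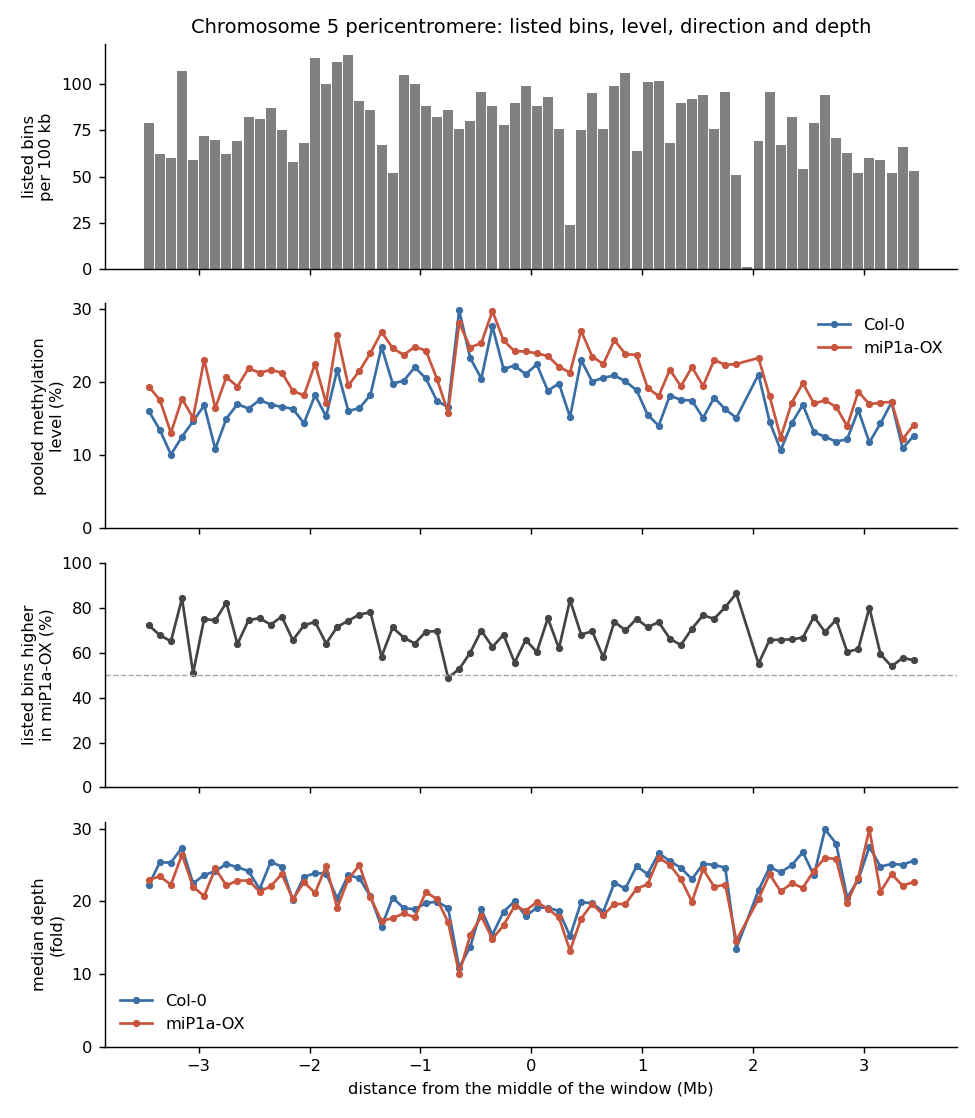
Listed bins, pooled methylation level (%), share of listed bins higher in miP1a-OX (%) and median depth (fold) in 100-kb steps, by distance from the middle of the stretch in Mb. Points are steps with at least 20 listed bins, the dashed line marks 50%, and the miP1a-OX line lies above that of Col-0 in 67 of 69 steps.

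Pseudogenes were the most methylated class, whereas bins between annotated genes were most often higher in miP1a-OX. The 3285 intergenic bins had a median level of 13.5% in Col-0 against 20.6% in miP1a-OX, and 77.0% of them were higher. The 1391 pseudogene bins had medians of 25% and 26.1%, and 56.9% were higher. In the 738 bins of protein-coding genes the medians were 4.84% and 5.44%, and 53.0% were higher. Other RNA genes had 67 bins, with medians of 10.5% and 16.4%, and 73.1% were higher. In the arms the corresponding shares were 79.0% for intergenic bins, 57.9% for pseudogenes and 44.3% for protein-coding genes. Arms and pericentromere thus differ in their mix of classes, since 3977 of the arm bins lie in protein-coding genes.

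**Figure D2:**
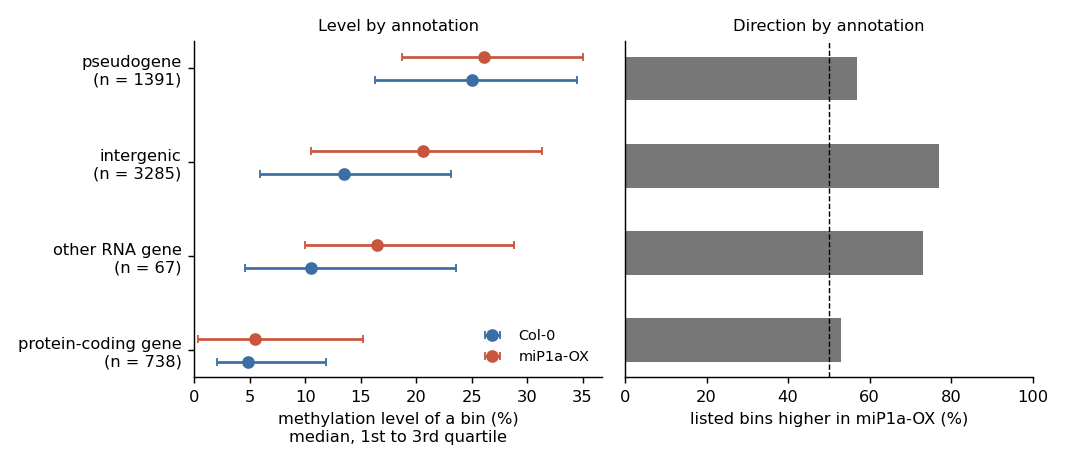
Left, methylation level of a bin (%) in Col-0 and miP1a-OX by annotation, with the median as a point and the interquartile range as a bar. Right, share of the listed bins higher in miP1a-OX (%), with the dashed line at 50%. Intergenic bins stand highest on the right at 77.0% and protein-coding genes lowest at 53.0%.

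Within genes, the coding sequence and the rest of the gene had different values. The 558 bins that overlap coding sequence had pooled levels of 8.57% in Col-0 against 8.46% in miP1a-OX, with 267 bins higher and 291 lower. In 180 bins of introns, UTRs and other parts of the gene, the pooled levels were 9.63% and 13.7%, and 68.9% of the bins were higher. In the 535 bins within 1000 bases upstream of a protein-coding gene and outside any gene, they were 16.1% and 21.8%, and 78.7% were higher. The rest of the intergenic bins, 2750 in number, had 16.5% and 21.3%, with 76.6% higher. A level of 0% was more frequent in miP1a-OX than in Col-0 in coding sequence, in 116 against 55 of the 558 bins. Of the 836 protein-coding genes of the pericentromere, 405 had at least 1 listed bin, and the most over a single gene was 11, in AT5G35630 (GLN2) and AT5G36870.

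The pooled difference was largest at intermediate levels. Bins with a mean level of both libraries from 10 to 20% had a pooled level of 12.5% in Col-0 against 17.7% in miP1a-OX, higher by 5.14 points, and 77.8% of these 1376 bins were higher in miP1a-OX. Below 5% the pooled levels were 2.57% and 2.85%, with 52.2% of 913 bins higher. Above 50% they were 54.8% and 57.2%, with 56.9% of 109 bins higher. The median difference of single bins followed another course and was larger at each higher level, from 6.21 points between 5 and 10% to 11.1 points above 50%. At equal calls, a bin with a level nearer 50% needs a larger difference to be listed. The listing by p can therefore set this course, and nothing is concluded from it. In the arms the pooled difference was -0.504 points below 5%, and reached 8.85 points from 30 to 40%, where the pericentromere had 4.04 points. Highly methylated bins of the arms therefore showed a larger difference in these libraries than bins of the same level in the pericentromere, a contrast that was not tested.

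**Figure D3:**
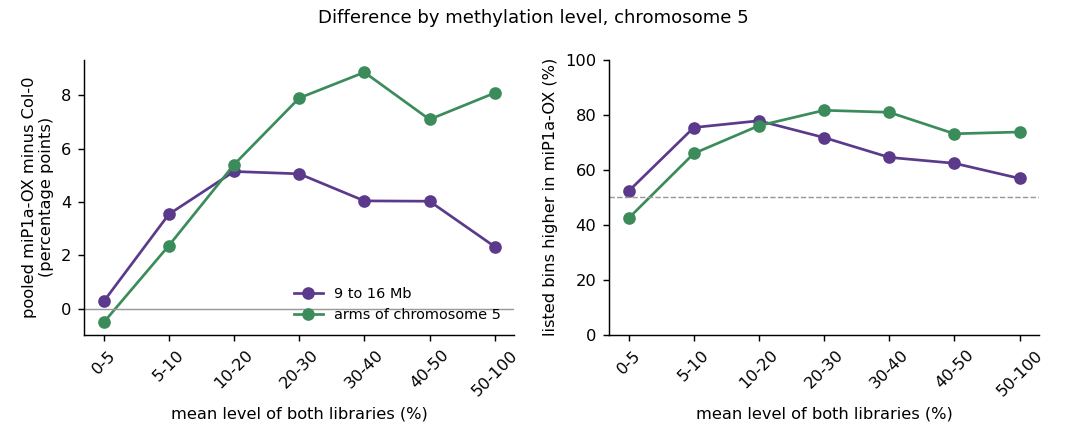
Pooled difference, miP1a-OX minus Col-0 (percentage points), and share of listed bins higher in miP1a-OX (%), by the mean level of both libraries (%), for the bins from 9 to 16 Mb and for the arms of chromosome 5. The pericentromere reaches at most 5.14 points and the arms 8.85 points.

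The number of CG cytosines went with the level more than with the difference. The level rose with the number of cytosines in CG context on both strands, from a pooled 10.02% in Col-0 against 13.7% in miP1a-OX in the 1240 bins without any to 34.8% and 35.7% in the 421 bins with 11 or more. The pooled difference was 3.68 points in the first and 0.843 points in the second, and the share of bins higher in miP1a-OX was 71.9% and 56.3%. Across the 5481 bins, which share libraries and neighbouring reads, Spearman's rho between the number of CG cytosines and the level was 0.452 in Col-0 against 0.406 in miP1a-OX, and 0.006 with the difference (Pearson's r 0.518, 0.448 and -0.0597). The number of CHH cytosines had a rho of -0.233 with the difference (r -0.241), and of 0.127 and -0.0649 with the level in Col-0 and miP1a-OX (r 0.111 and -0.0766). Levels of both libraries had a rho of 0.744 (r 0.700). The difference had a rho of -0.107 (r -0.0705) with the log2 ratio of the depths, miP1a-OX over Col-0.

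Many bins of the pericentromere have close copies, here a match of at least 90% identity over at least 80 bases elsewhere in the genome, so that reads may be placed on the wrong copy. Such copies were found for 52.5% of the bins. The 2601 bins without a copy had pooled levels of 14.2% in Col-0 against 17.4% in miP1a-OX, and 67.9% of them were higher. The 710 bins with 21 to 100 copies had 22.9% and 26.9%, and 68.3% were higher. Bins with copies thus had higher levels, whereas the share of higher bins was nearly equal.

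Tandem repeats were found at 7 places with listed bins, from the spacing at which words of 20 bases recur. At 11.18 to 11.20 Mb the most frequent spacing was 502 bases, and at 11.22 to 11.28 Mb it was 648 bases. From 11.70 to 11.80 Mb it was 178 bases, the length of a centromeric satellite unit, followed by 709 and 356 bases, which are close to multiples of it. From 11.82 to 11.98 Mb it was 888 bases, followed by 889, 356 and 533, and at 13.44 to 13.46 Mb 356 bases. The 113 listed bins made of such words had pooled levels of 17.5% in Col-0 against 18.7% in miP1a-OX, a difference of 1.28 points, against 3.59 points in the other 5368 bins. Their median difference was 6.19 points against 7.46, and 65.5% of them were higher against 68.7%. The arrays differed in direction, from a pooled 15.6% in Col-0 against 23.5% in miP1a-OX in 11 bins at 12.80 to 12.90 Mb, and 8.13% against 14.4% in 7 bins at 13.44 to 13.46 Mb, to 10.8% against 10.4% in 19 bins at 11.70 to 11.80 Mb. From 11.82 to 11.98 Mb 36 bins had 15.4% and 16.4%. The arrays at 11.70 to 11.80 Mb and from 11.82 Mb lie at least partly in the 100-kb steps in which the pooled level was lower in miP1a-OX, and their part in that was not tested.

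Of 11 bins with at least 100-fold depth, all lay within the bounds of 2 of these arrays, and 10 are themselves made of the recurring words. In the 502-base array, 4 bins had depths of at least 201-fold in both libraries, and all were higher in miP1a-OX. The deepest, chr5:11185401-11185499, had 1497 of 7370 calls methylated in Col-0 (20.3%) against 1610 of 7222 in miP1a-OX (22.3%), a difference of 1.98 points (Fisher's exact test, p = 0.00359). In the 178-base array the directions were mixed. The bin chr5:11730401-11730499, with 460 close copies, had 243 of 5109 calls methylated in Col-0 (4.76%) against 165 of 4878 in miP1a-OX (3.38%), lower by 1.37 points (change -1.37, Fisher's exact test, p = 0.000571). Its neighbour chr5:11730501-11730599 went from 20.3% (662 of 3255) to 17.3% (537 of 3101). By contrast, chr5:11723701-11723799 went from 9.70% (362 of 3733) to 12.0% (479 of 3979). Of these 11 bins only chr5:11728801-11728899, the 1 not made of recurring words, at 5.11% in Col-0 against 2.91% in miP1a-OX, passed adjustment at 0.01, with an adjusted p of 0.00839 from Fisher's exact test.

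Large differences were few. A differing bin, with 10 or more calls in each library, a difference of 40 points or more in either direction and p of at most 0.01, was found 23 times in the pericentromere (0.42% of the listed bins), close to the 0.402% of all listed bins of the genome. Without the minimum of calls there were 32, and 0.476% of all listed bins. Of these, 20 were higher in miP1a-OX and 3 lower, a share of 87.0% higher, but after centring on the listed nuclear bins there were 20 differing bins, 11 higher and 9 lower. Among all differing bins of the genome 156 of 228 were higher, and 55 of 88 in the stretch of chromosome 1. Some of the 23 are neighbours and all come from the same libraries, so the share has no interval. Between 11 and 12 Mb lay 11 of the 23, which is 1.34% of the 822 listed bins there. In the arms 9 bins differed (0.135% of their listed bins), and in the stretches of chromosomes 1 to 4 between 12 and 88 (0.197% to 1.66%). Intergenic sequence held 14 of the differing bins (0.426% of its listed bins), pseudogenes 7 (0.503%) and protein-coding genes 2 (0.271%).

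The depth of these bins was low. Their median was 31 calls in Col-0 against 18 in miP1a-OX, or 3.86-fold and 2.57-fold, and 21 of the 23 stayed under 50 calls in at least 1 library. Among the 82 listed bins with under 50 calls in the shallower library, 21 were differing, and among the 4606 whose shallower library reached 200 calls, 0 were. With few calls only a large difference reaches p of at most 0.01, so the listing itself makes large differences frequent among shallow bins. Close copies were found for 22 of the 23, against 96.3% of the 82 shallow bins and 52.5% of all listed bins of the pericentromere. In 17 of the 23, the methylated calls of the higher library were no more than the cytosines on the richer strand of the bin, which 1 sequenced DNA fragment could supply. When that many methylated calls were taken from the higher library, 2 of the 23 still had p of at most 0.01 in the same direction and 0 differed by 40 points or more. In the 17, this left 0 methylated calls in that library, so their loss was fixed in advance.

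The largest increase among bins with at least 5 measured sites was at chr5:11940601-11940699, the CG-rich bin printed first, 459 bases from pseudogene AT5G32306. It had 2 of 24 calls methylated in Col-0 (8.33%, interval 1.03 to 27.0) against 10 of 11 in miP1a-OX (90.9%, 58.7 to 99.8), higher by 82.6 points (Fisher's exact test, p = 3.67e-06). Calls covered 24 of its 55 cytosines in Col-0 against 11 in miP1a-OX, so the libraries may have measured different cytosines. A neighbour at chr5:11940901-11940999 was also higher, from 44.0% (37 of 84 calls) to 84.7% (61 of 72). At chr5:14338801-14338899, without any CG, 3 of 27 calls were methylated in Col-0 (11.1%) against 13 of 18 in miP1a-OX (72.2%). This bin lies 580 bases from AT5G36370, which encodes a protein of the ECA1 gametogenesis related family. At chr5:14443501-14443599, 253 bases from pseudogene AT5G36732, the level went from 18.5% (5 of 27) to 76.9% (10 of 13), and at chr5:12848801-12848899, in a tandem repeat, from 3.33% (1 of 30) to 58.8% (10 of 17). The intervals of the libraries did not overlap in any of these bins, which were chosen for a large difference, so this adds no support. After removal of the methylated calls of 1 fragment, the difference was -8.33 points at the first bin and 18.0 at its neighbour. At the others, which likewise had calls at only part of their cytosines, it was -11.1, -18.5 and -3.33 points, in the order given. Except at the neighbour, miP1a-OX held fewer methylated calls than were taken, so its level became 0% and the sign was fixed in advance.

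Pseudogene AT5G29975 had adjacent differing bins and more calls. At chr5:11326101-11326199, 17 of 70 calls were methylated in Col-0 (24.3%, 14.8 to 36.0) against 29 of 35 in miP1a-OX (82.9%, 66.4 to 93.4), a difference of 58.6 points (Fisher's exact test, p = 1.45e-08). At chr5:11326001-11326099, named after its values were seen, 102 of 292 calls were methylated in Col-0 (34.9%, 29.5 to 40.7) against 90 of 120 in miP1a-OX (75%, 66.3 to 82.5), higher by 40.1 points (Fisher's exact test, p = 1.04e-13). No other differing bin reached 100 calls in each library. After removal of the methylated calls of 1 fragment its difference was 27.1 points (p = 1.82e-05 by the same exact test). The first of the pair held 29 methylated calls in miP1a-OX, fewer than the 41 taken. Its level there thus became 0% and its difference -24.3 points, a sign that was fixed in advance. Close copies number 7 and 6.

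The 3 decreases were at an intergenic bin, a pseudogene and a gene. At chr5:13621701-13621799, the AT-rich bin printed above, 617 bases from MIR2937, 26 of 48 calls were methylated in Col-0 (54.2%, 39.2 to 68.6) against 0 of 62 in miP1a-OX, which allows up to 4.84%. The difference was -54.2 points (Fisher's exact test, p = 2.30e-12), and -31.2 points without the calls of 1 fragment (p = 7.14e-06, exact). This bin and chr5:11326001-11326099 are the 2 that kept p of at most 0.01 after that removal. In RBCS3B, which encodes a small subunit of Rubisco, 16 of 35 calls were methylated in Col-0 (45.7%) against 0 of 48 in miP1a-OX, which allows up to 6.25%. Calls in this RBCS3B bin covered 17 of its 48 cytosines in Col-0 against 34 in miP1a-OX. At chr5:13269001-13269099 in pseudogene AT5G34985, the level went from 62.5% (10 of 16) to 20.6% (13 of 63), lower by 41.9 points (difference -41.9). The Col-0 interval there, 35.4 to 84.8, lay just above that of miP1a-OX, 11.5 to 32.7. Calls in this pseudogene bin covered 7 of its 44 cytosines in Col-0 against 31 in miP1a-OX. Here and in RBCS3B the libraries may thus have measured different cytosines.

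**Figure D4:**
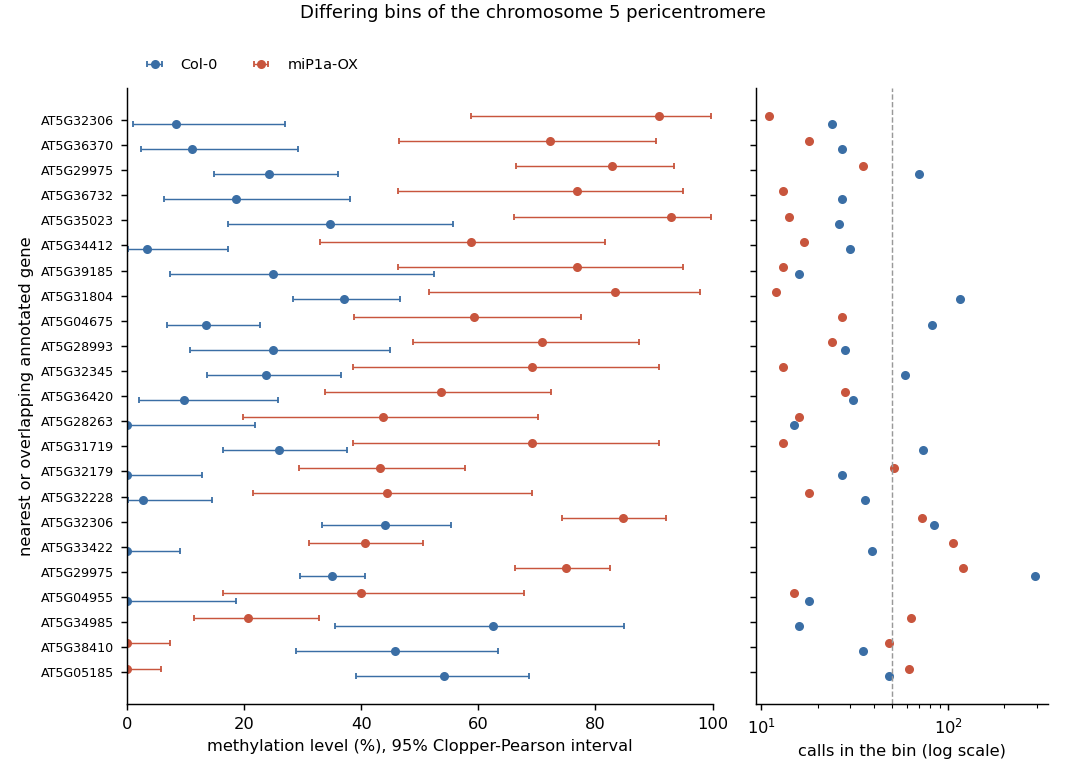
The 23 differing bins, ordered by their difference. Left, level (%) in Col-0 and miP1a-OX with 95% Clopper-Pearson intervals. Right, calls in the bin on a log scale, with a dashed line at 50 calls. Labels give the annotated gene or pseudogene that the bin overlaps or lies nearest to. In 21 bins a library lies left of the dashed line.

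Runs of neighbouring bins give differences that rest on more calls, although neighbouring bins can share reads, so these calls are not independent. At least 4 listed bins in a row with the same direction were found 41 times, 36 times higher in miP1a-OX (160 bins) and 5 times lower (24 bins), and the longest held 7 bins. The run with the largest pooled increase in percentage points, at chr5:9591201-9591599, went from 15.3% (147 of 959 calls, 13.1 to 17.8) to 33.8% (406 of 1201, 31.1 to 36.6) over 4 bins. At chr5:9558201-9558799, 607 bases past the 3′ end of NHX1, a vacuolar sodium/proton exchanger gene, 6 bins went from 21.9% (295 of 1350) to 40.1% (423 of 1054), and each of them was higher by 13.3 to 31.1 points. Every bin of both runs has a close copy. The run at chr5:9646001-9646399, 2084 bases from pseudogene AT5G27345, has none, and went from 2.42% (43 of 1778 calls, 1.76 to 3.24) to 19.6% (412 of 2098, 18.0 to 21.4). Its 4 bins were higher by 4.80 to 34.5 points, and 3 of them pass the adjusted threshold.

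Runs that were lower in miP1a-OX were fewer, and the levels of 2 of the 3 largest nearly reached 0. At chr5:10613301-10613799, 5 bins that run into the RNA gene AT5G00505 went from 18.0% (311 of 1727 calls) to 4.62% (91 of 1971). Most of this lay in a single bin, chr5:10613301-10613399, at 54.9% in Col-0 against 19.7% in miP1a-OX. At chr5:15828501-15828999, 466 bases from AT5G39530, a gene of unknown function, 5 bins went from 11.03% (200 of 1814) to 0.543% (7 of 1289), and all 5 pass the adjusted threshold. At chr5:13907601-13907999, 66 bases from AT5G35737, annotated as a Ta11-like non-LTR retrotransposon, 4 bins went from 8.22% (125 of 1521) to 0.653% (11 of 1684), and all 4 pass. In these 3 runs every bin held methylated calls in Col-0, and 8 of the 14 bins held 0 in miP1a-OX. After removal of the methylated calls of 1 fragment from each bin, 2 of 5, 3 of 5 and 3 of 4 bins kept p of at most 0.01, in the order given.

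Genes of known function were examined by a list of 28, all of which lie in the pericentromere. A listed bin over the gene or within 1000 bases upstream was found for 23, with 93 bins in all, 43 higher in miP1a-OX and 50 lower (median difference -2.71 points, against 7.45 for all bins), and 47 pass the adjusted threshold. Of all protein-coding gene bins of the pericentromere, 53.0% were higher and 33.6% pass. The clock gene RVE2, the chromatin-remodelling gene SEF, the floral gene SAP, the auxin response factor gene ARF8 and NHX1 had none. Of the upstream bins 18 of 25 were higher, with median levels of 18.6% in Col-0 against 25.2% in miP1a-OX, and of all upstream bins of the pericentromere 78.7% were. Of the bins within genes 43 of 68 were lower, with medians of 4.97% and 0.759%, and in 24 of these 43 the level in miP1a-OX was 0%. In 11 of the 25 higher bins within genes, the level in Col-0 was 0%. Relative to the median of the listed nuclear bins, 16 of the 25 upstream bins and 14 of the 68 within genes are higher. After removal of the methylated calls of 1 fragment, 10 of the 25 upstream bins and 3 of the 68 within genes keep p of at most 0.01 in the same direction. A bin with no more methylated calls than are taken cannot keep it. These counts thus depend on the level, which is lower within genes, and nothing is read from their contrast.

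Among 6 genes of flowering, light and the clock, 3 had 13 bins, 7 higher and 6 lower, of which 2 pass the adjusted threshold. TPR3, a corepressor of the TOPLESS family, had 6 bins, 3 higher and 3 lower, and 0 pass. Its largest difference was in a coding exon at chr5:9510301-9510399, from 13.0% (61 of 469 calls) to 21.8% (119 of 546). PHYC, a red/far-red photoreceptor, had 4 upstream bins, all higher, and 2 coding bins, both lower. At chr5:14007301-14007399, 413 bases upstream, PHYC went from 16.0% (82 of 511, 13.0 to 19.5) to 32.7% (144 of 441, 28.3 to 37.2), higher by 16.6 points (Fisher's exact test, p = 2.05e-09, adjusted p = 9.86e-07). In its coding exon at chr5:14009201-14009299, 12 of 258 calls were methylated in Col-0 against 0 of 425 in miP1a-OX, which allows up to 0.706%. CDF2, which represses the flowering regulator CO, had 1 upstream bin, from 10.4% (32 of 307) to 2.70% (6 of 222), with 13 close copies elsewhere (adjusted p = 0.0256 from Fisher's exact test).

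VIM3, whose protein binds methylated cytosine and helps to keep CG methylation, had 4 bins, 2 higher and 2 lower, and 0 pass the adjusted threshold. The largest difference lay upstream at chr5:15841401-15841499, from 39.3% (165 of 420 calls) to 28.1% (94 of 334). A second upstream bin, chr5:15841001-15841099, went the other way, from 15.3% (83 of 543) to 25.1% (79 of 315). The VIM3 bins therefore had no common direction.

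Among 5 genes of growth and hormone signalling, 4 had 13 bins, 10 higher and 3 lower, and 6 pass. AHK2, a cytokinin receptor, was higher in 5 of 6 bins. In its coding exon at chr5:13913401-13913499 the level went from 3.05% (10 of 328 calls) to 17.2% (103 of 600), a difference of 14.1 points (Fisher's exact test, p = 9.78e-12). At chr5:13917301-13917399, 496 bases upstream and with 7 close copies, it went from 35.3% (151 of 428) to 55.0% (219 of 398). BZIP63, a transcription factor of the response to low energy, was higher in all 4 of its bins, which lie upstream. The largest of these was at chr5:10798601-10798699, from 41.4% (140 of 338) to 56.6% (205 of 362). GID1C, a gibberellin receptor, was lower in both of its coding bins, at 10.5% and 15.4% in Col-0 against 3.38% and 6.32% in miP1a-OX, and neither passes. AN3, a coactivator of leaf growth, had 1 bin, with 0 of 333 calls in Col-0 against 9 of 170 in miP1a-OX (5.29%).

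The other 16 genes had 63 bins, 24 higher and 39 lower, of which 39 pass. The myrosinase gene TGG2, whose product breaks down glucosinolates, was lower in all 4 of its coding bins, from between 4.33% and 6.38% in Col-0 to at most 0.484% in miP1a-OX, and all 4 pass. No TGG2 bin kept p of at most 0.01 after removal of the methylated calls of 1 fragment. Each held fewer methylated calls in Col-0 than were taken, so this was fixed in advance. The neighbouring gene TGG1 had 7 coding bins, 3 higher and 4 lower. GLN2, the chloroplast glutamine synthetase, had 12 bins in both directions. At chr5:13831401-13831499 in GLN2, 0 of 450 calls were methylated in Col-0, which allows up to 0.667%, and 72 of 462 in miP1a-OX (15.6%, 12.4 to 19.2), with p = 3.16e-23 by Fisher's exact test. Downstream in GLN2, the 8 listed bins from chr5:13831901-13831999 to chr5:13832901-13832999 were all lower, from between 3.45% and 9.09% in Col-0 to at most 3.35% in miP1a-OX. The bins of the first part of GLN2 were thus higher in miP1a-OX and those of the rest lower. After removal of the methylated calls of 1 fragment, none of the 8 lower bins kept p of at most 0.01. Except at chr5:13831901-13831999 and chr5:13832001-13832099, Col-0 held fewer methylated calls than were taken, so this was fixed in advance. The higher bins chr5:13831401-13831499 and chr5:13831601-13831699 kept it.

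PAP26, an acid phosphatase, and BIP1, a chaperone of the endoplasmic reticulum, had the largest upstream differences of opposite sign. At chr5:13111701-13111799, 45 bases upstream of PAP26, the level went from 23.9% (48 of 201 calls, 18.2 to 30.4) to 49.6% (67 of 135, 40.9 to 58.4), higher by 25.7 points (Fisher's exact test, p = 1.38e-06). The next bin upstream of PAP26 went from 33.3% (138 of 414) to 50.6% (127 of 251). At chr5:10543801-10543899, 243 bases upstream of BIP1, it went from 35.3% (168 of 476, 31.0 to 39.8) to 17.6% (81 of 459, 14.3 to 21.4), a difference of -17.6 points (Fisher's exact test, p = 1.01e-09). These 3 bins have no close copy.

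The Rubisco small subunit genes RBCS3B, RBCS2B and RBCS1B lie side by side. The 3 genes had 16 bins, 8 higher and 8 lower, and centring turned 3 of the higher bins lower. Of the 16 bins, 12 have close copies, so that their calls may be split between copies. Upstream of RBCS3B, at chr5:15379001-15379099 without a copy, the level went from 1.40% (5 of 356 calls) to 12.1% (54 of 445). In a coding exon of RBCS1B at chr5:15384401-15384499 it went from 29.3% (29 of 99) to 10.1% (19 of 188), with 3 copies.

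The remaining genes had 1 to 5 bins each. SOS2, a kinase of salt tolerance, had 5 bins, 2 higher and 3 lower, and in its coding exon at chr5:13636401-13636499 27 of 401 calls were methylated in Col-0 (6.73%) against 0 of 564 in miP1a-OX, which allows up to 0.532%. GORK, a potassium channel of guard cells, had 2 bins higher and 3 lower. GLN1-1, a cytosolic glutamine synthetase, had 1 upstream bin, from 4.03% (45 of 1117) to 10.1% (84 of 830). CBP60G, a regulator of salicylic acid synthesis, was lower in both bins, STP13, a hexose transporter, was higher in 1 and lower in 1, and TT2 and NAC092, both transcription factors, were lower in 1 bin each. None of these 4 genes had a level above 3.55% in either library.

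**Figure D5:**
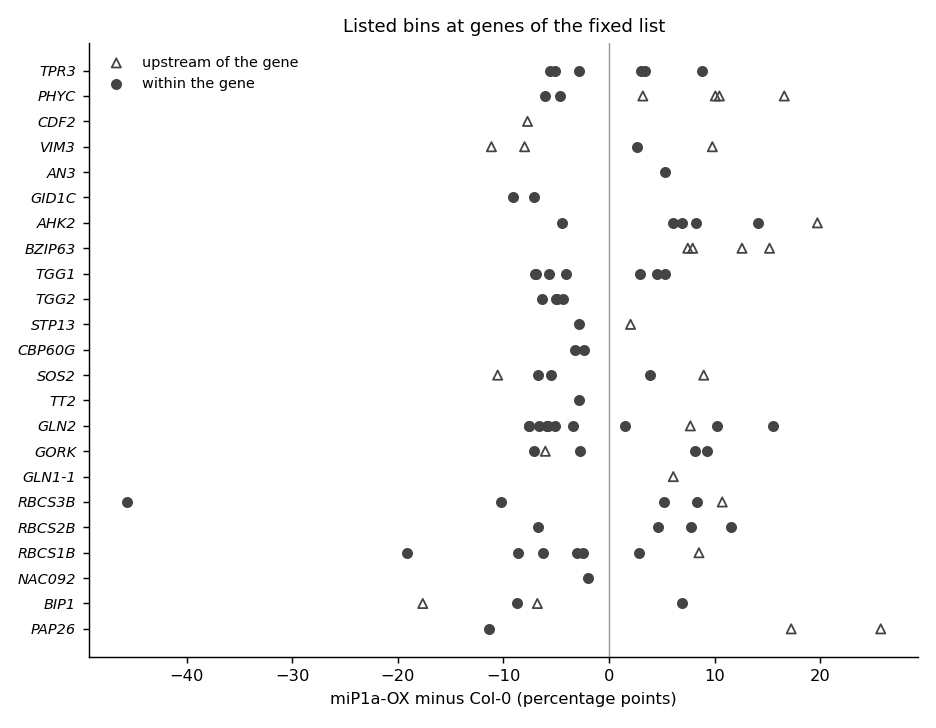
Difference in methylation level, miP1a-OX minus Col-0 (percentage points), in the 93 listed bins at 23 genes. Filled circles are bins within the gene and open triangles bins within 1000 bases upstream, the grey line marks 0, and most triangles (18 of 25) lie to its right.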

How the data were processed

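Whole-genome bisulfite sequencing was analysed in 2 libraries, 1 for each genotype. The authors mapped reads with BS-Seeker2 2.1.0 and Bowtie2 to TAIR9, obtained levels with Methpipe, and deposited counts of methylated and unmethylated calls per bin, not normalized. The deposited level is a fraction, methylated over all calls, and computed levels differed from it only by rounding. The authors' p-value and their merged annotated list were not used, nor were 10 further columns with values of either library. The deposited number of sites equalled C plus G of the first 99 bases of the bin in TAIR10.1 in 100% of the nuclear bins, so genes and sequence came from TAIR10.1 (RefSeq).

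Two-sided Fisher's exact tests, intervals and counts were computed with scipy 1.17.1, pandas 2.3.3 and numpy 2.4.6 in python 3.11.15. The rule for differing bins was tested on simulated data. For a level of 0 the limit is that of 3 calls. The number of tests for Benjamini-Hochberg adjustment was all 1196690 bins of the reference. Copies were found with blastn 2.17.0. Figures were drawn with matplotlib 3.10.9.

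The bins, gene list and tests were chosen with earlier results of these data known. Bins named were the 5 largest increases and all 3 decreases among differing bins (minimum of 5 sites measured), the 3 largest runs in each direction by pooled difference, and all listed bins over or within 1000 bases upstream of the 28 listed genes. Other bins named are neighbours, deepest bins or chosen after their values were seen. Alternatives were other minimums of calls, difference thresholds, adjustment, thinning of the deeper library, bins without copies, centring, removal of the calls of 1 fragment, and the inner stretch from 10 to 15 Mb.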

Additional observations from a re-analysis of the deposited data

How the results depend on the processing

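The count of 23 differing bins moved to 10 and 2 with at least 20 and 50 calls in each library, 54 and 8 with differences of at least 0.3 and 0.5, 11 with Benjamini-Hochberg adjustment, 1 among bins without a close copy and 0 once the methylated calls of 1 fragment were removed, which left no share to compute. With no minimum it was 32, with the deeper library thinned 16. The share of these higher in miP1a-OX, 87.0%, moved to 100% with 50 calls (2 bins) and without copies (1 bin), and to 55.0% after centring. The pooled difference of 3.51 points moved to 4.04 as a mean over bins, 3.15 without copies and 5.17 among bins that pass adjustment. Less the median of the listed nuclear bins it was -1.75. That median is over bins and not over pooled calls, so the change of sign is not read as a reversal. The pooled difference of the listed nuclear bins was 2.15 points. The share of listed bins higher, 68.6%, moved to 70.7% among bins that pass adjustment and to 61.0% after centring. Centring uses a median of bins already listed for differing, and whether it removes a technical shift was not tested.

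Of 128 named bins, 57 had an adjusted p above 0.01, 22 lost p of at most 0.01 after thinning, and 74 after removal of 1 fragment, which reversed 25 more. Where the higher library held no more methylated calls than were taken, its level became 0%, so a loss or reversal was fixed in advance. Those reversed by the removal were chr5:11326101-11326199 (-24.3 points), chr5:11940601-11940699 (-8.33), chr5:12848801-12848899 (-3.33), chr5:13269001-13269099 (20.6), chr5:14338801-14338899 (-11.1), chr5:14443501-14443599 (-18.5), and bins of TPR3 (0.240 and -0.348), PHYC (1.21), GID1C (3.38 and 4.74), AHK2 (0.545), TGG1 (0.229 and -0.330), TGG2 (0.484), STP13 (0.313), CBP60G (0.303), SOS2 (-0.790), GLN2 (0.256 and 0.885), RBCS3B (0.633), RBCS2B (-2.12), RBCS1B (0.238 and 5.997) and BIP1 (-0.251). Centring reversed 14: TPR3 (-1.82 and -2.19), PHYC (-2.06), VIM3 (-2.63), TGG1 (-2.31, -0.00063 and -0.755), STP13 (-3.22), SOS2 (-1.43), GLN2 (-3.71), RBCS3B (-0.0219), RBCS2B (-0.642), RBCS1B (-2.42) and chr5:9646301-9646399 (-0.461). No paired analysis was possible because there is no second library of either genotype, nor could a library be left out. The differing bins had median depths of 3.86-fold in Col-0 against 2.57-fold in miP1a-OX, so few reads decide each.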
